A study of Mus musculus with 29 samples.

Results

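Large H3K36me2 domains are stretches of chromatin that carry dimethylation of lysine 36 of histone H3 without a break in the peak list. They were selected on peak width alone, as the untreated H3K36me2 peaks on chromosomes 1 to 19 and X of at least 30000 bp, and 1317 of 50867 peaks (2.59%) met that width. The series used chromatin immunoprecipitation and sequencing on RAW264.7, an Abelson virus-transformed mouse cell line with macrophage properties. Each mark was mapped in cells given lipopolysaccharide (LPS, a part of the bacterial envelope that macrophages sense and respond to) at 100 ng/ml for 1 h or 4 h, and in untreated cells. H3K36me2 and H3K4me1 were also mapped after 1 h of pretreatment with flavopiridol, which inhibits CDK9 and so stops RNA polymerase from elongating, followed by LPS for 4 h or by no LPS. The 7 histone marks gave 25 peak lists, and PU.1, a transcription factor that opens macrophage enhancers, has a list for untreated cells alone. All groups are this 1 transformed line, and each mark has a single library in each condition. Variation between cultures is therefore unknown, no difference below has a test, and the depth of each library is unknown too. Intervals given with shares are 95% Wilson intervals, which cover counting error only and take both ends of a domain as independent.

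H3K36me2 is written mainly by the NSD enzymes and ASH1L, and it spreads over intergenic and genic chromatin beyond single genes. SETD2, which travels with elongating RNA polymerase, turns it into H3K36me3 within transcribed gene bodies, where DOT1L places H3K79me2 in the promoter-near part. Methylated H3K36 hinders Polycomb complex PRC2, the writer of the silencing mark H3K27me3, on the same histone tail. H3K4me1 marks enhancers and the flanks of promoters, H3K27ac marks the active ones, and H3K4me3 marks promoters.

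The domains spanned 64.9 Mb, which was 23.1% of the 281 Mb under untreated H3K36me2 peaks and 2.46% of the chromosomes used. Their median width was 41758 bp, with quartiles of 34201 and 54695 bp and a range of 30007 to 301296 bp. Of these, 889 were narrower than 50 kb, 374 spanned 50 kb to 100 kb and 54 were at least 100 kb wide. These widths chose the domains and are given as a description. The 3 narrowest members were 30007, 30017 and 30030 bp wide, and the 3 widest peaks left out were 29992, 29988 and 29971 bp wide. The narrowest member, on chromosome 4 at 119214824 to 119244830, lay wholly under H3K79me2 and had H3K4me1 over 82.7% of its length. The widest peak left out, on chromosome 6 at 52498875 to 52528866, had H3K36me3 over 71.6% and no H3K79me2. The deposited fold enrichment, a ratio set by the authors' peak caller, had a median of 1.58 in domains and 1.52 in the other peaks. The files do not say whether the fold and q given for a broad peak describe the whole listed interval, which limits these values and the q values below.

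Domains were unevenly spread over the chromosomes. Chromosome 13 held 102 domains over 4.45% of its length, the highest share, and chromosome 2 held 128 over 3.86%. At the low end, chromosome 8 held 34 domains over 1.04% and X held 17 over 0.423%. X also had the least H3K36me2 of any width, 4.60% of its length against 8.01% to 14.1% on the autosomes. In all, 423 domains (32.1%) lay within 10 kb of another domain, in 179 runs of 2 or more. The run with the most domains held 7 over 355 kb on chromosome 6, at 106140558 to 106495429. A run of 6 on chromosome 16, at 24558500 to 25009180, was the longest of the 5 runs with most domains, at 451 kb.

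Within the domains, H3K4me1 was the most common other mark. It covered 26.7% of domain length, against 35.5% in H3K36me2 peaks of 10 to 30 kb, 38.8% in peaks under 10 kb and 3.98% outside H3K36me2. Nearly every domain held some: 1279 of 1317 (97.1%, interval 96.1% to 97.9%) overlapped an H3K4me1 peak. H3K27ac covered 7.19% of domain length and was present in 963 domains (73.1%, interval 70.7% to 75.4%), against 11.2% and 14.2% of the length of the 10 to 30 kb and under 10 kb peaks and 2.17% outside. H3K4me3 covered 0.491% of domain length, below the 0.843% and 1.80% of narrower H3K36me2 peaks and the 1.48% outside. The domains thus held much more H3K4me1 and H3K27ac than chromatin without H3K36me2, but less per length than narrower H3K36me2 peaks did.

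The marks of transcribed gene bodies covered a minority of the domain length. H3K36me3 covered 18%, against 26.6% and 35.9% in the 10 to 30 kb and under 10 kb peaks and 7.11% outside, and 925 domains (70.2%) held some. H3K79me2 covered 16.6%, against 23.4%, 20.0% and 1.87%, and 812 domains had none. Of the 505 that held some, 247 had it over at least 50% of their length and 131 over at least 90%. H3K27me3 was almost absent, with 0.339% of domain length against 0.862% and 1.94% in narrower peaks and 15.2% outside, and 49 domains (3.72%, interval 2.83% to 4.88%) held any. Of all H3K27me3 length, 0.0608% lay in the domains, against 10.6% of all H3K79me2 length.

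**Figure D1:**
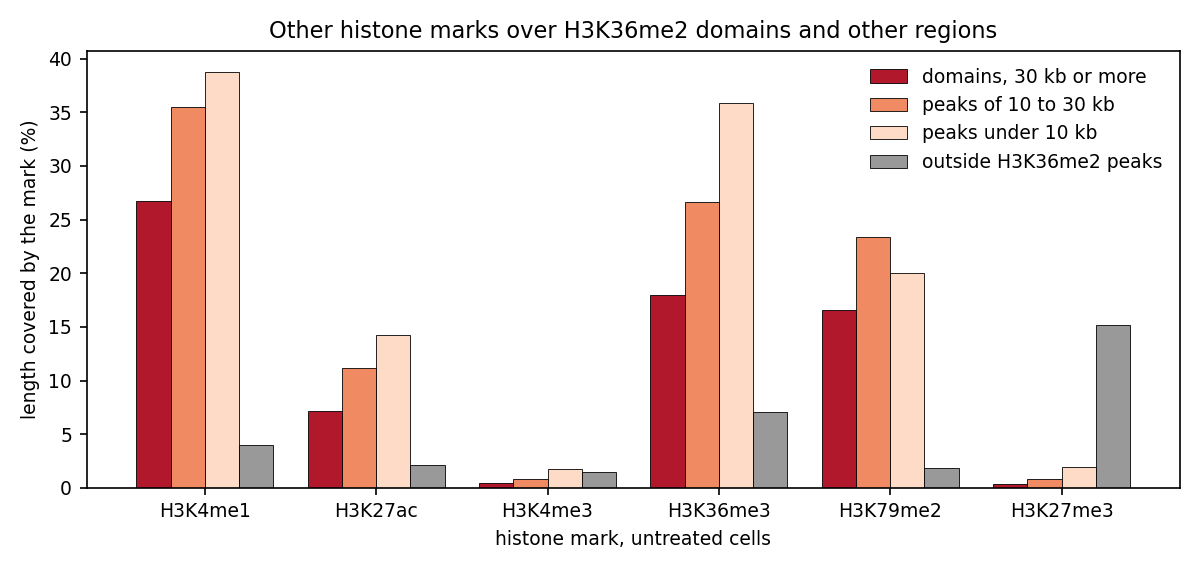
Percent of length covered by each of 6 other histone marks (untreated cells, 1 library per mark) in domains of at least 30 kb, in narrower H3K36me2 peaks and outside H3K36me2 peaks. Domains lie below the narrower peaks for each mark, above the outside for H3K4me1, H3K27ac, H3K36me3 and H3K79me2, and at 0.339% for H3K27me3 against 15.2% outside.

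By these marks the domains fell into kinds. H3K79me2 covered at least 50% of 247 domains (18.8%), and in 210 of them H3K36me3 covered less than that. These 210 had H3K4me1 over 51.0% of their length. A further 123 domains had H3K36me3 over at least 50% and H3K79me2 under 50%; their H3K4me1 was 15.7% and their H3K27ac 4.47%. In the remaining 947 neither mark covered 50% of the length, and 356 domains (27.0%) had no H3K36me3 or H3K79me2 peak at all. These 356 domains, free of both gene body marks, had H3K27ac over 11.0% of their length, above the 7.19% of all domains, and H3K4me1 over 26.8%. Only 5 domains (0.380%) held none of the 6 other histone marks.

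The widest domains had the least of the gene body marks. In the 54 domains of at least 100 kb, H3K36me3 covered 10.2% and H3K79me2 5.35%, against 18% and 16.6% over all domains. H3K4me1 and H3K27ac were at 21.3% and 6.03%, against 26.7% and 7.19% over all domains. The widest of all, on chromosome 2 at 44973908 to 45275203, had H3K27ac over 17.5% of its 301296 bp, H3K36me3 over 0.271% and H3K79me2 over 0.827%. A second domain of 173925 bp began on its right side at 45276791 and had neither gene body mark, with H3K27ac over 0.700%. The domain on chromosome 9 at 100545833 to 100739390 was of another make, with H3K79me2 over 46.7% of its length, on the left, and H3K36me3 over 22.1%, further right. Of the 10 widest domains, none held H3K27me3, and 4 had no H3K36me3.

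**Figure D2:**
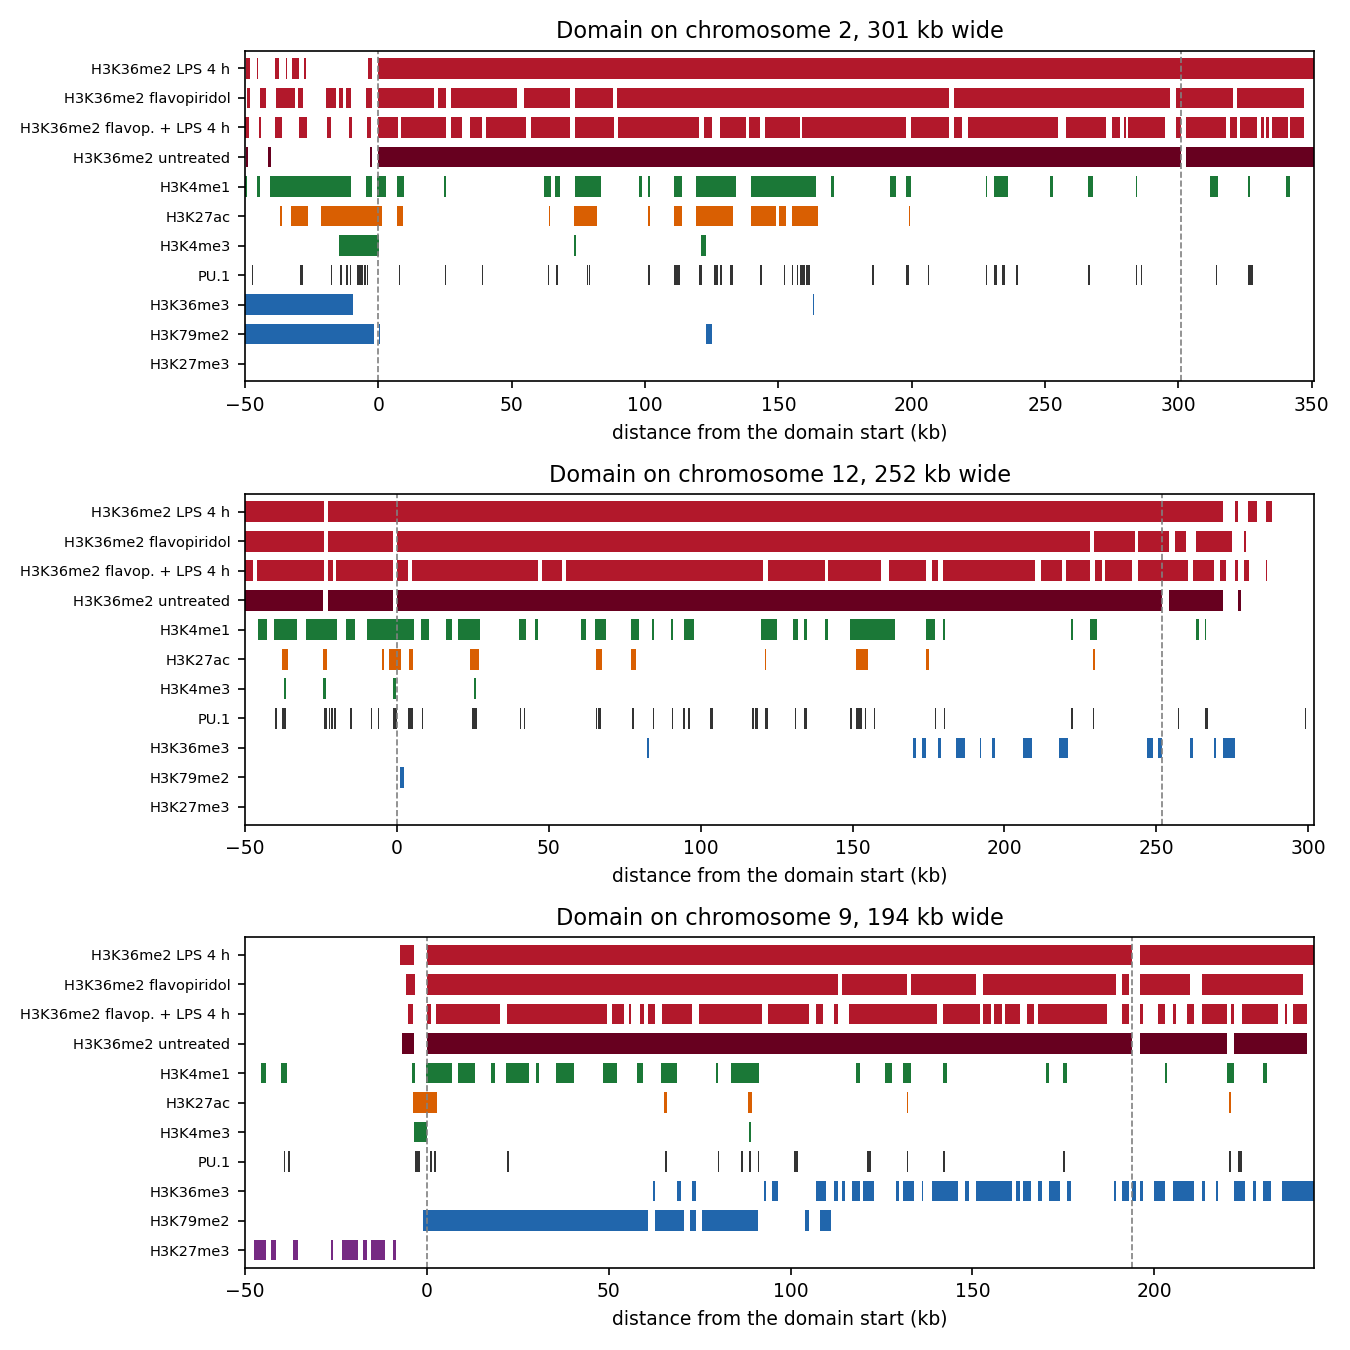
Peaks in and 50 kb around the 3 widest domains, on chromosomes 2, 12 and 9, by distance from the domain start in kb, with dashed lines at both domain ends. The upper 4 tracks of each map are H3K36me2 in 3 treatments and in untreated cells, and the others are marks and PU.1 of untreated cells. LPS 4 h peaks fill the domains, flavopiridol peaks break into pieces, and H3K4me3 and H3K27ac stand beside the left end of each.

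The single domains with most of 1 mark showed how far they could go from the median. On chromosome 5 at 136961748 to 136993803, H3K27ac and H3K79me2 each covered 100% of a 32056 bp domain with 11 PU.1 peaks. At the other end, a domain on chromosome 9 at 59738546 to 59770738 was 100% H3K36me3 with no H3K27ac and no H3K79me2. H3K27me3 covered 74.5% of a domain on chromosome 6 at 89333281 to 89370839, 57.6% of one on chromosome 8 at 118093576 to 118153487 and 43% of one on chromosome 10 at 98870088 to 98921865. All 3 also had H3K4me1, over 42.9%, 39.9% and 49.4% of their length, and 8 to 11 PU.1 peaks. No more than 2 domains had H3K27me3 over at least 50% of their length.

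PU.1 peaks were frequent in the domains. The 1317 domains met 6049 PU.1 peaks, or 0.932 per 10 kb, against 1.11 and 1.21 in H3K36me2 peaks of 10 to 30 kb and under 10 kb and 0.310 outside. Narrow regions meet proportionally more peaks at their ends by a 1 bp overlap, and where at least 50% of the PU.1 peak had to lie inside, the densities were 0.910 in domains, 1.05 and 0.962 in the narrower classes and 0.305 outside. The median domain held 4 and the highest count was 33, in the widest domain. In all, 62 domains (4.71%) had none and 104 had 10 or more. The other domains with most PU.1 were the chromosome 12 domain at 41286449 to 41538823, with 29, and one on chromosome 5 at 58115819 to 58251151, with 30 in 135333 bp. PU.1 density was 1.12 per 10 kb in the 356 domains with no gene body mark. It was 1.06 in the 210 with H3K79me2 alone over at least 50%, 0.671 in the 123 with H3K36me3 alone over at least 50%, and 0.897 in the 37 with both. The strength of PU.1 peaks was alike inside and outside: the authors' fold enrichment had a median of 6.25 (quartiles 4.06 and 11.8) for PU.1 peaks in domains and 6.34 (quartiles 4.20 and 11.8) for those outside H3K36me2. Of PU.1 peaks in domains, 85.6% overlapped H3K4me1, against 90.5% and 90.9% in the narrower classes and 62.0% outside. H3K27ac was at 42.4% of those in domains, against 51.0% and 54.7% in the narrower classes and 43.1% outside. H3K4me3 was at 5.97% of those in domains, against 7.41% and 9.58% in the narrower classes and 31.5% outside.

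Distal H3K4me1 regions, that is H3K4me1 peaks without an H3K4me3 peak, served as the count of enhancers. The domains met 4793, or 0.738 per 10 kb, against 0.760 and 1.06 in the 2 narrower classes and 0.134 outside. Those that also overlapped H3K27ac, a mark of active enhancers, numbered 1313, or 0.202 per 10 kb, against 0.271, 0.497 and 0.0343. Where at least 50% of the enhancer had to lie inside, the order of the classes turned for distal regions, with 0.710 per 10 kb in domains, 0.674 and 0.544 in the narrower classes and 0.107 outside. The active ones then came to 0.185 in domains, 0.213 and 0.191 in the narrower classes and 0.0180 outside. The order of the 3 width classes thus depended on how overlap was counted, and that against the outside did not. The median domain held 3 distal regions, and 575 domains (43.7%) held no active one.

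Across the 1317 domains, the shares under H3K4me1 and under H3K27ac went together (Spearman rho 0.708), and H3K27ac went with the share under PU.1 peaks (rho 0.762). H3K36me3 ran the other way, at −0.253 with H3K27ac and −0.271 with PU.1. Width had little relation to PU.1 per 10 kb, with a rho of −0.0654. The domains share the same libraries and unknown base composition, so these are descriptions.

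Domain ends most often faced more H3K36me2. Of 2634 ends, 92.1% had another H3K36me2 peak within 10 kb, so many ends were gaps within a broader territory. The median distance to the next H3K36me2 peak was 2.04 kb. Ends of peaks of 10 to 30 kb and under 10 kb had one that close at 86.6% and 71.5%, with median distances of 2.32 and 3.79 kb. H3K36me3 was within 10 kb outside 47.9% of ends (interval 46.0% to 49.8%), against 52.5% and 58.3% for the ends of 10 to 30 kb and under 10 kb peaks. H3K27me3 was that close at 11.6% of ends (interval 10.4% to 12.9%), against 16.0% and 22.7%. The median distance to H3K36me3 was 12.0 kb and that to H3K27me3 88.5 kb.

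The 2 marks rarely shared an end. H3K27me3 was within 10 kb at 1.11% of the ends that had H3K36me3 there, against 21.3% of the ends without, and 14 ends had both. A total of 1080 ends (41.0%) had neither. H3K36me3 flanked both ends of 391 domains, 1 end of 480 and neither end of 446. H3K27me3 flanked both ends of 27 domains, 1 end of 252 and neither end of 1038. In 142 domains 1 end faced H3K36me3 alone and the opposite end faced H3K27me3 alone.

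H3K4me3, H3K27ac and PU.1 peaks covered more bases just outside the ends than just inside. H3K4me1 did not, at 33.6% in the first 1 kb outward against 36.8% in the last 1 kb inside. In the first 1 kb outward, H3K4me3 covered 17.8% of the bases, against 2.65% in the last 1 kb inside. H3K27ac covered 27.9% outside against 15.5% inside, and PU.1 peaks 16.9% against 3.73%. The ends of 10 to 30 kb peaks had the same step, with H3K4me3 at 17.5% outside and 2.52% inside, so it was not a property of the wide domains. H3K27me3 had no such step: it covered 0.985% of the first 1 kb outside, 6.95% of the bases 9 to 10 kb out and 13.2% at 49 to 50 kb. H3K36me3 stayed near its level, from 22.9% in the last 1 kb inside to 21.0% in the first outside and 24.3% at 19 to 20 kb.

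**Figure D3:**
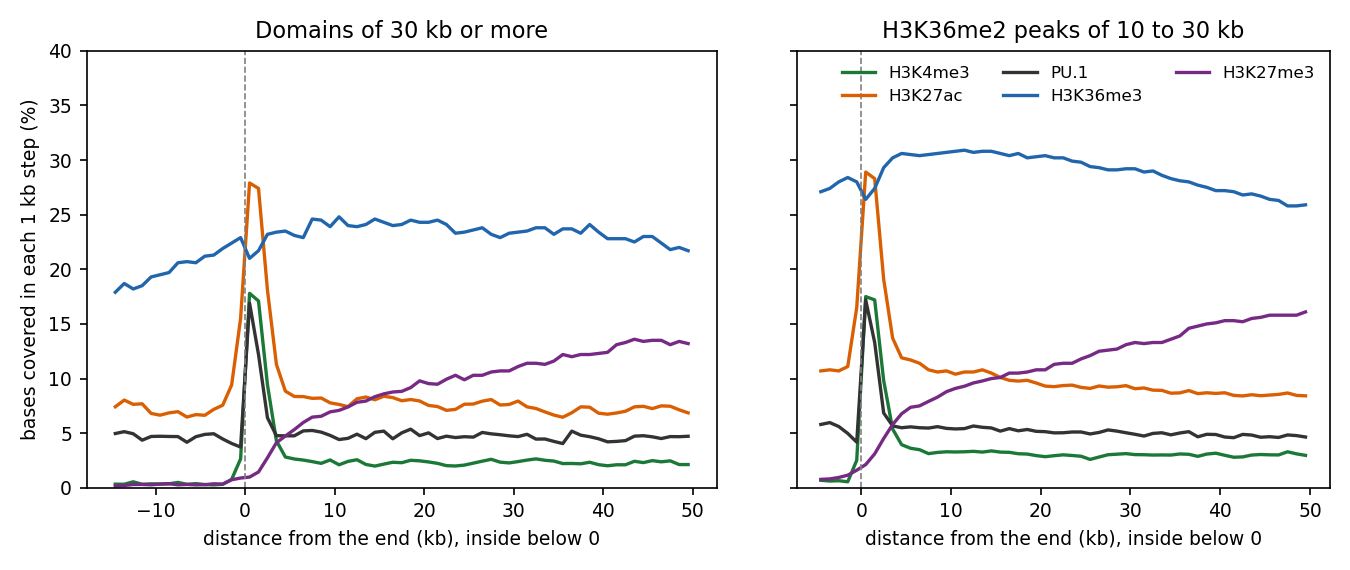
Percent of bases under each mark or PU.1 in 1 kb steps across the ends of domains (left) and of H3K36me2 peaks of 10 to 30 kb (right), untreated cells, with the inside below 0 and the 2 ends of a region oriented alike. H3K4me3, H3K27ac and PU.1 peak in the first 2 steps outside, while H3K27me3 climbs slowly with distance.

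The gaps beside domains had the same makeup. Of 2211 gaps of up to 10 kb next to a domain, 24.1% held an H3K4me3 peak, 33.1% H3K27ac, 38.2% PU.1 and 2.08% H3K27me3, and their median size was 1962 bp. The 214 such gaps between 2 domains held H3K4me3 in 19.6% and H3K36me3 in 19.2%, against 30.8% with H3K36me3 over all 2211.

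The H3K36me2 lists of the 5 conditions differed as wholes, which bears on every comparison between them. Peaks that the authors' caller gave a −log10 q (its adjusted significance) of 5 or more made up 9.02% of the untreated list, 22.6% at LPS 1 h and 32.5% at LPS 4 h. They were 0.0390% after flavopiridol then LPS 4 h and 0.197% after flavopiridol, against the same 9.02% in untreated cells. Peaks of at least 30 kb numbered 1317 untreated, 1854 at LPS 1 h and 2205 at LPS 4 h, while there were 387 after flavopiridol then LPS 4 h and 1262 after flavopiridol. The part of library strength in the coverage below was not tested.

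After LPS the domains were under H3K36me2 nearly whole. Peaks of the LPS 1 h list covered 99.1% of domain length and those of the LPS 4 h list 99.5%, against 93.4% and 95.7% of the length of all untreated peaks. No domain was covered over less than 50% at LPS 1 h, where 14.8% of all untreated peaks were, and none at LPS 4 h, where 10.2% of all untreated peaks were. Peaks of 10 to 30 kb came close to the domains, with 0.0874% and 0.262% of them under 50% and 97.3% and 98.3% of their length covered. With a −log10 q of 5 or more asked of every list, 67 domains were left, covered over 74.8% at LPS 1 h and 70.7% at LPS 4 h, with 18 and 22 of them under 50%. At least 90% was covered in 1305 domains at LPS 1 h (background 66.6% of all peaks) and in 1308 at LPS 4 h (77.0%). A single piece was met by 1078 domains at LPS 1 h (81.9%) and 1215 at LPS 4 h (92.3%), against 86.8% and 91.4% of all untreated peaks. Because wide untreated peaks were chosen, and coverage was higher with width in each list, part of this follows from the choice.

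The domain with the lowest coverage at LPS 4 h lay on chromosome 8 at 64432244 to 64467673. It was covered over 100% at LPS 1 h and over 63.4%, in 5 pieces, at LPS 4 h, when H3K36me3 covered 42.6% of it, against 1.10% in untreated cells. At LPS 4 h the uncovered parts of domains summed to 0.319 Mb, and untreated H3K36me3 covered 45.7% of them and H3K4me3 6.45%, against 17.9% and 0.462% of the covered part. Of their length, 53.0% lay within 5 kb of a domain end, as did 20.3% of the length of whole domains. At LPS 1 h H3K36me3 and H3K4me3 were also higher in the uncovered part (39.7% and 5.97% against 17.8% and 0.440%), while H3K79me2 was lower, at 13.1% against 16.6%. After flavopiridol H3K4me1, H3K36me3 and H3K79me2 were all lower in the uncovered part, at 21.2%, 15.6% and 7.51% against 27.2%, 18.2% and 17.4%. H3K27me3, H3K4me3 and PU.1 were higher there, at 3.08%, 1.31% and 5.84% against 0.0951%, 0.418% and 4.46%. After flavopiridol then LPS 4 h H3K36me3 was instead higher in the uncovered part, at 22.2% against 17.1%. In that list H3K4me1 and H3K79me2 were again lower in the uncovered part, at 22.7% and 13.2% against 27.7% and 17.4%.

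H3K36me2 also covered more bases outside the untreated ends at LPS. In the 10 kb outside domain ends it covered 56.0% of bases in untreated cells, 67.3% at LPS 1 h and 71.2% at LPS 4 h. The ends were set by the untreated list, which could cross none of them and covered 0% of the first 1 kb outside. The other lists were free to fill these bases, so part of the difference follows from the choice of ends. Flavopiridol peaks, too, crossed 57.7% of the ends. A peak ran across the untreated end at 76.6% of ends at LPS 1 h and 85.0% at LPS 4 h. Of the outer bases without H3K36me2 in untreated cells, 36.6% were under it at LPS 4 h. That share was 55.9% for bases under H3K36me3, 45.3% under H3K4me1 and 14.2% under H3K4me3, and 8.88% under H3K27me3. Of the gaps of up to 10 kb, 36.0% were filled at LPS 1 h and 45.2% at LPS 4 h. Seen the other way, the 2205 domains of the LPS 4 h list had 91.3% of their length under untreated H3K36me2, and 11 of them were covered over less than 50%.

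The domains were less fully covered in the flavopiridol lists than in the LPS lists. Peaks after flavopiridol covered 91.8% of domain length, against 80.8% of the length of all untreated peaks. With LPS 4 h added the values were 81.0% against 65.6%. Seen the other way, untreated peaks covered 92.3% of the length of the 1262 domains of the flavopiridol list, with 2.06% of them under 50%. They covered 95.5% for the 387 after flavopiridol then LPS 4 h. In all, peaks covered 281 Mb untreated, 305 Mb after flavopiridol and 230.0 Mb after flavopiridol then LPS 4 h. Lower coverage in another list follows in part from setting the domains on untreated peaks. Under the stricter q both flavopiridol lists covered 0% of the 67 domains left, since almost none of their peaks reached it. Under 50% was covered in 39 domains after flavopiridol (2.96%, background 28.5%) and in 86 after flavopiridol then LPS 4 h (6.53%, background 47.3%). At least 90% was covered in 1000 domains (75.9%, background 48.8%) and in 401 (30.4%, background 23.6%). A domain met 2.48 pieces on average after flavopiridol and 4.59 after flavopiridol then LPS 4 h, against 1.62 and 2.22 for peaks of 10 to 30 kb, which have less length to break. As many as 22 pieces were met by 1 domain, the 173925 bp one on chromosome 2. The widest kept most: domains of at least 100 kb were covered over 96.1% after flavopiridol and 88.6% after flavopiridol then LPS 4 h, against 84.5% and 70.4% for peaks of 10 to 30 kb.

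**Figure D4:**
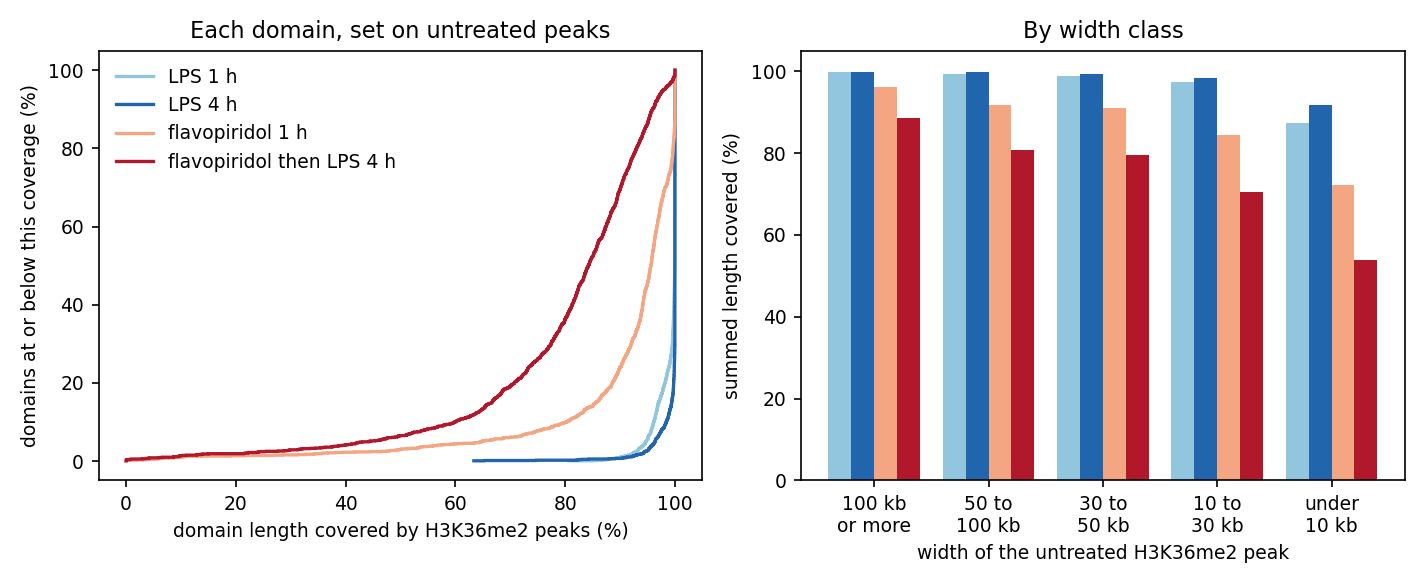
Left, cumulative share of the 1317 domains by the percent of their length under H3K36me2 peaks in each treated list. Right, summed length covered in each treated list by width of the untreated peak. The LPS curves rise only near 100%, and the curve of flavopiridol then LPS 4 h is spread out, with 86 domains under 50%.

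The domains poorest in H3K36me2 after flavopiridol shared marks that the choice by width did not use. Of the 39 under 50%, 35 (89.7%) had neither H3K36me3 nor H3K79me2 in untreated cells, against 25.1% of the other 1278. H3K27me3 was in 14 of the 39 (35.9%), against 2.74% of the others. Put by kind, 9.83% of the 356 domains without a gene body mark were under 50% after flavopiridol, against 0.416% of the 961 with one. Peaks of 10 to 30 kb split alike, with 22.8% and 2.21%. After flavopiridol then LPS 4 h the shares were 15.7% and 3.12% of domains. By length, that list covered 76.6% of the domains without a gene body mark and 82.6% of those with one. Those with H3K36me3 over at least 50% were no better covered, at 74.3% with H3K36me3 alone and 76.9% with both marks. Domains with H3K79me2 alone over at least 50% were at 83.5%. In the 39 domains under 50% after flavopiridol, H3K4me1 in untreated cells was close to that of the other 1278, 28.9% against 26.7% of length. PU.1 was also close, with 1.11 against 0.927 peaks per 10 kb. LPS 4 h without the drug covered 98.4% of the length of these 39 domains.

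Several of these domains had no flavopiridol peak at all. The 59912 bp domain on chromosome 8 with H3K27me3 over 57.6% was at 0% in both flavopiridol lists, against 96.6% at LPS 1 h and 96.9% at LPS 4 h. A domain on chromosome 3 at 135909879 to 135946896 was also at 0% in both lists and had no H3K27me3, as was one on chromosome 6 at 53561767 to 53592087. In all, 3 domains were at 0% after flavopiridol and 5 after flavopiridol then LPS 4 h, and 36 were under 50% in both lists. The H3K27me3-rich domain on chromosome 6 at 89333281 was at 31.1% and 51.4%.

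Chromosome X stood apart in the flavopiridol lists. Its 17 domains were covered over 27.9% after flavopiridol then LPS 4 h, against 69.5% to 86.1% on the autosomes, and over 66.5% after flavopiridol, against 83.8% to 95.3%. Of the 86 domains under 50% after flavopiridol then LPS 4 h, 15 were on X. All untreated H3K36me2 peaks of X were at 20.1% and 54.7%, and untreated H3K4me1 on X was at 28.2% and 44.1%. At LPS 4 h the X domains were at 99.0%. The labels do not say whether the flavopiridol libraries came from the same stock of cells, or were called against the same control, as the untreated ones, which limits every comparison between them. Without X, 71 and 36 domains were under 50% and the coverage was 81.5% and 92.1%.

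Outside the ends, flavopiridol peaks covered 59.7% of the first 10 kb and those after flavopiridol then LPS 4 h 48.4%, against 56.0% in untreated cells. Peaks crossed 57.7% and 38.5% of the untreated ends. Of the outer bases under H3K27me3 and without H3K36me2 in untreated cells, 1.17% and 0.632% came under H3K36me2, against 47.0% and 26.6% of those under H3K36me3. H3K36me2 outside the ends was thus higher with LPS in cells without the drug (71.2% at LPS 4 h against 56.0% untreated). In cells given the drug it was lower with LPS (48.4% against 59.7%), and no test of this contrast is possible. Only the contrast without the drug has as its baseline the list that set the ends, so the contrasts are not like for like. The flavopiridol lists also differ in the time since the drug was added, so LPS and that time cannot be told apart there.

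H3K4me1, the only other mark with flavopiridol lists, covered 26.7% of domain length in untreated cells, 23.5% at LPS 1 h and 26.9% at LPS 4 h, when 646 domains had more than untreated and 644 less. It covered 9.94% after flavopiridol then LPS 4 h and 13.9% after flavopiridol, against 26.7% in untreated cells. As ratios to untreated these were 0.372 and 0.519 in domains, 0.428 and 0.565 in peaks of 10 to 30 kb, 0.497 and 0.638 in peaks under 10 kb and 0.776 and 0.911 outside H3K36me2. The ratio was thus lowest in the domains in both lists. After flavopiridol 1250 domains had less H3K4me1 than in untreated cells and 31 had more. The peaks in domains were also narrower, with a mean width of 2285 bp after flavopiridol against 3648 bp untreated, and 4873 were met against 5764.

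Counted by region, 61.8% of the 4620 distal H3K4me1 regions with at least 50% of their length in domains met H3K4me1 peaks after flavopiridol. The share was 66.7% and 70.3% in the narrower H3K36me2 classes, the wider class first, and 72.4% outside H3K36me2. After flavopiridol then LPS 4 h the shares were 48.0% in domains, 55.1% and 58.9% in the narrower classes and 61.9% outside. In both lists the narrower classes thus lay between the domains and the outside. After LPS alone domains and outside were close: 84.8% and 84.4% at LPS 1 h, and 90.8% and 90.4% at LPS 4 h. Among these regions of the domains, 26.1% overlapped H3K27ac in untreated cells, 22.5% at LPS 1 h and 30.1% at LPS 4 h.

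**Figure D5:**
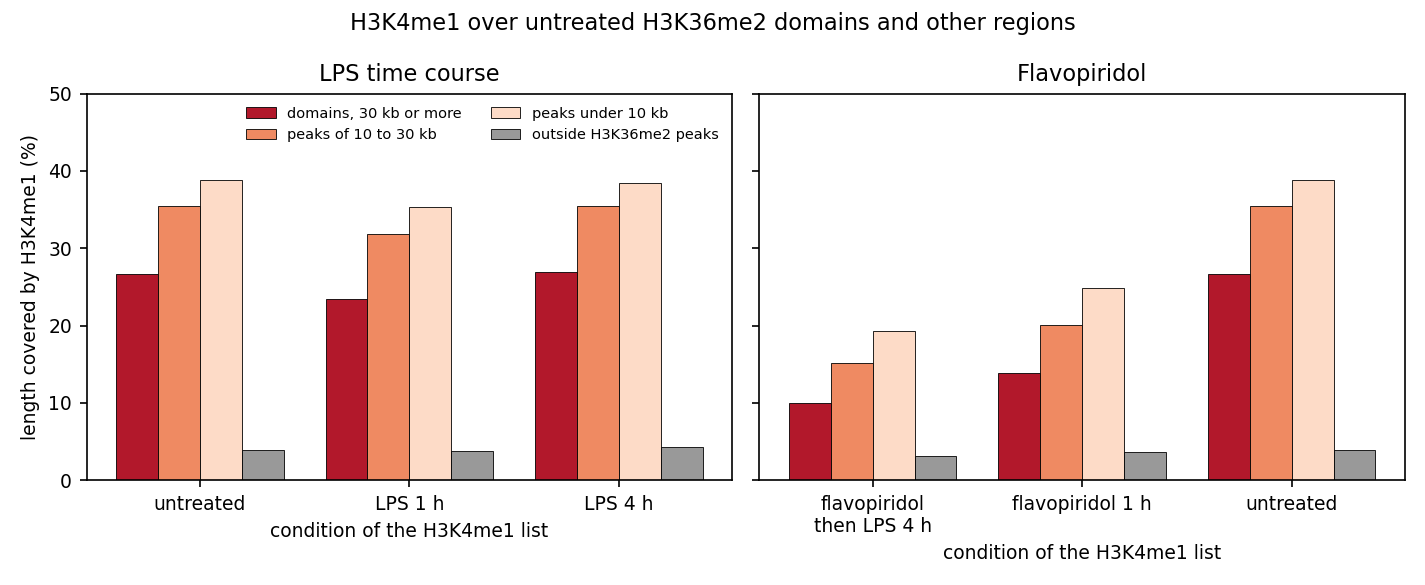
Percent of length under H3K4me1 peaks in domains, narrower untreated H3K36me2 peaks and outside them, through the LPS time course (left) and in the flavopiridol lists beside untreated cells (right), 1 library each. In domains the value is 9.94% after flavopiridol then LPS 4 h and 13.9% after flavopiridol, against 26.7% untreated, while outside H3K36me2 it is 3.09% and 3.63% against 3.98%.

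Over the LPS course, H3K27ac covered 7.19% of domain length untreated, 5.70% at LPS 1 h and 7.95% at LPS 4 h. The other regions went the same way. Ratios to untreated at LPS 1 h were 0.792 in domains, 0.791 and 0.802 in the narrower classes and 0.923 outside H3K36me2. At LPS 4 h they were 1.11, 1.06, 1.03 and 1.11 in that order. At LPS 4 h, 562 domains had more H3K27ac than untreated and 480 less. Among the 10 widest, the largest gain was in the chromosome 16 domain at 24626353 to 24802490. There H3K27ac covered 12.3% untreated, 23.8% at LPS 1 h and 48.6% at LPS 4 h. The widest domain, on chromosome 2, went the other way, at 17.5%, 13.1% and 13.7%. H3K36me3 covered 18%, 18.9% and 16.0% of domain length untreated, at LPS 1 h and at LPS 4 h. Its ratio at LPS 4 h was 0.888 in domains, 0.940 and 0.939 in the narrower classes and 0.997 outside. H3K79me2 covered 16.6%, 18% and 18%, and H3K27me3 stayed at or below 0.352%. The H3K79me2 ratio at LPS 4 h was 1.09 in domains, 1.07 and 1.06 in the narrower classes and 1.13 outside. H3K4me3 covered 0.491%, 0.475% and 0.583%, with ratios at LPS 4 h of 1.19 in domains, 1.29 in both narrower classes and 1.06 outside.

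The authors' 27-state segmentations, which may rest on these same libraries, gave the domains mainly 2 states. State 1, where H3K36me2 covered nearly all bases and H3K4me1 17.1%, took up 44.4% of domain length in untreated cells, 59.1% at LPS 1 h and 65.2% at LPS 4 h. State 26, where H3K36me2 covered 64.5% and H3K36me3 32.2%, took up 28.3%, 14.3% and 8.14%. Over the genome the same states took up 2.48%, 3.84% and 4.75% (state 1) and 5.50%, 4.61% and 4.66% (state 26). State 19, where H3K27me3 covered 95.7%, made up 0.0547% of the untreated domains and 10.9% of the genome.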

How the data were processed

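Peak lists of 25 histone mark libraries and 1 PU.1 library were used, and 3 input samples have no list here. The submitters' processing notes name Bowtie 1.0.1, MACS2 and the mm9 build. Call settings, controls and depth are not stated there or in the files. The deposited peak values are a fold ratio over background, −log10 p and q values, and a score, all the authors' own. Comparisons rest on interval starts and ends, not on these values. Domains were set on the untreated H3K36me2 list, and identical intervals were counted once. Overlap is 1 bp unless said. Coordinates are 1-based mm9 positions. The authors' 27-state segmentations name states in 200 bp steps. With 1 library per group there is no test and no p-value. The members, comparisons and named regions were chosen with earlier results of these data known. Named regions are the 10 widest, the narrowest 3, the next 3 below the width, and the 3 extremes of PU.1, H3K27ac, H3K36me3, H3K27me3 and H3K36me2 in each treatment. No mm9 genome or annotation was used here, so no gene or sequence is given and gene lists set out at the start were left out. Interval arithmetic was checked on simulated intervals. Python 3.11.15, numpy 2.4.6, pandas 2.3.3, scipy 1.17.1 and matplotlib 3.10.9 were used.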

Additional observations from a re-analysis of the deposited data

Results flagged for a closer look

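Some values of the LPS 4 h contrast had opposite signs in cells without flavopiridol and in cells given it, in single libraries, and the differences were not tested. Among cells given flavopiridol, those with LPS for 4 h also had a longer time since the drug was added. LPS and that time cannot be told apart there. For H3K4me1 over the domains the difference was −3.91 percentage points between flavopiridol then LPS 4 h and flavopiridol, and 0.158 points between LPS 4 h and untreated cells, where 646 domains were higher and 644 lower, so the second has no clear direction. H3K36me2 in the 10 kb outside the domain ends differed by 15.2 points without the drug and by −11.3 points with it. The first of these has as its baseline the untreated list, which set the ends and could not cross them. The second compares lists that did not set the ends, so these differences are not like for like. The number of H3K36me2 peaks of at least 30 kb differed by 888 without the drug and by −875 with it.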

How the results depend on the processing

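Of 131 values recomputed, 84 stayed within 1.5 times the count or within the counting interval of the value given, and 47 did not. Merging H3K36me2 peaks within 1 kb and using all sequences moved none of 20 values each, but neither could move any. No H3K36me2 lay in the first 1 kb outside any peak, and all sequences gave the same 1317 domains. Leaving out chromosome X, added after the data were seen, kept 1300 domains and moved none of 20 values. These settings make up much of the 84 values that stayed. With a width of at least 20 kb there were 2732 domains, with H3K4me1 at 29.3%, H3K79me2 at 19.1%, PU.1 at 0.978 and active distal regions at 0.222 per 10 kb, coverage of 90.2% after flavopiridol and 78.5% after flavopiridol then LPS 4 h, and 127 and 279 domains under 50%. With at least 50 kb there were 428, with H3K4me1 at 23.2%, H3K36me3 at 14.9%, H3K79me2 at 10.8%, PU.1 at 0.888, distal regions at 0.714 and active ones at 0.185 per 10 kb, H3K36me3 at 41.6% of ends, and 10 and 23 domains under 50%. A −log10 q of at least 5 in every list left 67 domains. In these H3K4me1 was at 15.7%, H3K4me3 at 0.209%, H3K27ac at 4.56%, H3K36me3 at 12.1%, H3K79me2 at 12.9% and H3K27me3 at 0%. PU.1 was at 0.786, distal regions at 0.447 and active ones at 0.120 per 10 kb, and H3K27me3 was near 1.49% of ends and H3K36me3 near 31.3%. Coverage was then 74.8% at LPS 1 h and 70.7% at LPS 4 h, with 18 and 22 domains under 50%, and 0% in both flavopiridol lists, with all 67 under 50% after flavopiridol; those lists hold almost no peak past this threshold. Where 50% of the peak had to overlap, also for the H3K4me3 that excludes promoters, distal regions came to 0.803 and active ones to 0.272 per 10 kb. H3K27me3 and H3K36me3 lay near 6.57% and 38.3% of ends within 5 kb and 17.8% and 56.0% within 20 kb. With a call at 80% coverage, 3 domains were below it at LPS 4 h, 130 after flavopiridol and 479 after flavopiridol then LPS 4 h. No paired analysis was possible because each condition has 1 library and no result comes from a test. Depth is unknown, so a place with no peak may hold the mark below the caller's limit.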
